A study of Mus musculus with 8 samples.

Results

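Liver and subcutaneous fat of WT mice on an HFD (high-fat diet) were compared with each other, without the MKRN1-null libraries. The members were the 4 WT libraries of the 8 in the study, 2 of liver and 2 of subcutaneous fat, and within them the 12799 of 24532 genes whose FPKM (fragments per kilobase of transcript, scaled to the depth of the library) reached 1 in at least 2 of the 4 libraries. The mice were male C57BL/6 WT animals, that had been given the HFD from 6 weeks of age for 19 weeks by the labels. The labels also give an age of 24 weeks, which is slightly less than these add up to, and the study's methods give another duration of feeding, so age and exposure are known only roughly. Both tissues shared genotype, sex, strain and diet, and no lean or chow-fed sample was among them, so the values describe the tissues in diet-induced obesity and not the effect of the diet. According to the study's methods, WT littermates came from crosses of heterozygous parents backcrossed to the inbred strain, and poly(A) RNA was sequenced. The labels number the 2 samples of each tissue but do not say whether liver 1 and fat 1 came from the same animal. Nothing in the labels describes pooling, and a p from 2 against 2 samples measures only the spread between these samples.

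The liver takes up dietary carbon from the portal blood, makes glucose for the body, builds and exports lipoproteins, burns fatty acids and secretes most plasma proteins. Subcutaneous white fat stores triglyceride in large unilocular adipocytes, releases fatty acids and glycerol on demand, and secretes hormones such as leptin and adiponectin. Many steps of glucose and lipid metabolism are encoded by small gene families whose members are divided among tissues, so that the same reaction can be run by a different isoenzyme in each. In bulk tissue, fewer cells of a type and less RNA per cell cannot be told apart, and this holds for every value that follows.

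At an adjusted p under 0.05 from limma on log2(FPKM + 1), 2293 genes (17.9% of those tested) were higher in liver and 7972 (62.3%) higher in fat. At least 4-fold differences (a log2 difference of 2 or more) were found for 889 genes (6.95%) in liver and 1504 (11.8%) in fat. The split depended on scaling. The 10 most abundant genes held 23.7% and 23.8% of the summed FPKM in the livers and 13.8% and 14.4% in fat. The median log2 difference of all tested genes, liver minus fat, was −0.59, whereas median-of-ratios scaling gave 0.02 and quantile normalization −0.10. Genes higher in liver made up 22.3% of calls, against 50.9% and 43.5% under these scalings and 18.5% with TPM, in which each library sums to the same total, and 346 of the genes called for fat were called for liver after median-of-ratios scaling. A call is therefore said to have held where it passed in the same direction under both other scalings and without each of the 4 libraries in turn, which was so for 1742 genes (13.6%) higher in liver and 3951 (30.9%) higher in fat. With TPM, 1738 and 3951 of these were called in the same direction. Of the 4-fold calls 867 of 889 and 1466 of 1504 held, which concerns direction and not size. Under median-of-ratios scaling and quantile normalization, 888 and 886 of the 889 liver genes stayed at least 4-fold. Of the 1504 fat genes, 929 (61.8%) and 1006 (66.9%) did. A gene that did not pass is not thereby level, since of 44 list members not called 25 were called for liver after median-of-ratios scaling and 8 for fat with TPM. Aligned sequence was 6.05 and 7.46 Gb in liver and 9.21 and 9.24 Gb in fat, and the 2 samples of a tissue had a Pearson correlation of 0.989 across genes in either tissue. Genes are not independent replicates, so that value is a description. Values below are FPKM of replicates 1 and 2, in that order, and differences are liver minus fat on the log2(FPKM + 1) scale with their standard error (SE). This scale understates differences of scarce genes. Genes are described in 45 lists of 500 genes, of which 466 passed the filter on low values, and counts below are of tested members. Every such count is to be set against the 17.9% of all tested genes called for liver and the 62.3% called for fat.

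Each tissue carried its own markers. Of 16 hepatocyte markers 16 were higher in liver, all held, with a median log2 difference of 10.58 against −0.59 over all genes. Of 16 adipocyte markers 16 were higher in fat, all held, with a median of −5.29. Alb, which encodes serum albumin (chromosome 5, 90460870 to 90476602 on mm10), stood at 39900 and 33790 FPKM in liver and 2.77 and 4.52 FPKM in fat. It supplied 7.39% and 6.06% of the summed FPKM of the livers. Adipoq, the gene of adiponectin (chromosome 16, 23146536 to 23157968), stood at 0.193 and 0.223 FPKM in liver and 2899 and 2873 FPKM in fat. The groups did not overlap in any of these markers, but they overlapped in only 1149 of the 12799 tested genes.

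**Figure D1:**
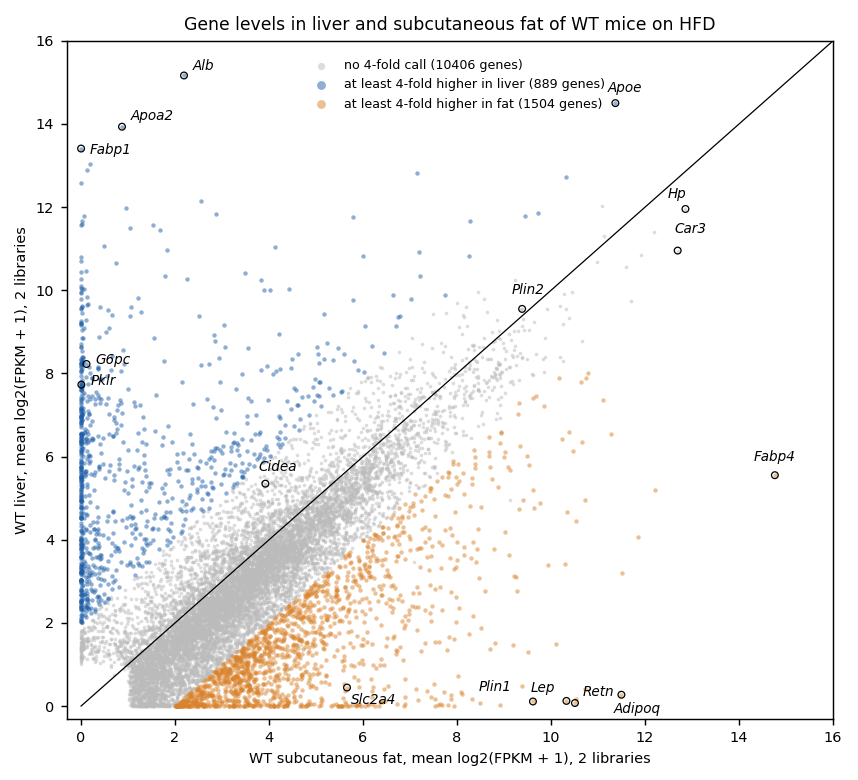
Mean log2(FPKM + 1) of each of the 12799 tested genes in WT liver (vertical axis, 2 libraries) against WT subcutaneous fat (horizontal axis, 2 libraries). Coloured points are the 889 genes called at least 4-fold higher in liver and the 1504 called at least 4-fold higher in fat, and named points include Alb, Fabp1, Adipoq and Fabp4 at the far ends of the tissues' ranges.

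Among the 10 genes furthest towards liver were Fabp1, Apoa2, Alb, Apoa1, Ttr, Ahsg, Gc, Apoa4 and Fgb. Of these, all but Fabp1, a cytosolic fatty acid carrier, encode secreted plasma proteins. Fabp1 stood at 10460 and 11280 FPKM in liver and 0 and 0 FPKM in fat (log2 difference 13.41, SE 0.08397, adjusted p = 1.12e-06). Fat was listed at 0 for Fabp1, Ttr, Apoa4 and Fgb in both libraries, so no fold is given for them. The 10 genes furthest towards fat were Adipoq, Retn, Sncg, Lep, Plin1, Fabp4, Nnat, Retnla, Cav1 and Aoc3. They include the adipokines adiponectin, resistin and leptin, the lipid droplet coat perilipin 1, the caveola protein caveolin 1 and the amine oxidase of the adipocyte surface, Aoc3. Lep stood at 0.0816 and 0.0977 FPKM in liver and 1333 and 1233 FPKM in fat (log2 difference −10.20, SE 0.0859, adjusted p = 1.12e-06). Sncg, which encodes gamma-synuclein, reached 1734 and 1624 FPKM in fat and stayed under 1 FPKM in liver. Of the tested genes, 411 were at 1 FPKM or more in both livers and under 0.1 in both fat samples, and 372 showed the reverse, while 9724 reached 1 FPKM in all 4 libraries.

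Upstream sequences of 4 of these genes are shown because these genes lay among the furthest from the other tissue. They are from RefSeq (GRCm38.p6, the same assembly as mm10), read 5′ to 3′ on the gene's strand, and end at the base before the annotated start. Capitals mark the letters GTTAAT, known from promoters of hepatocyte genes. They also mark the TATA box, searched as TATAAA, which positions the polymerase at some promoters. The last motif marked is the CCAAT box, searched by these letters. Both strands were searched, and a motif on the other strand appears as its reverse complement.
Alb, chr5:90460720-90460869, plus strand: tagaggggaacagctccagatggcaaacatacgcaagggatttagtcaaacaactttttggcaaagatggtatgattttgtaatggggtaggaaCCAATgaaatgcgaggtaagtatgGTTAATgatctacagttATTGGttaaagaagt
Fabp1, chr6:71199729-71199878, plus strand: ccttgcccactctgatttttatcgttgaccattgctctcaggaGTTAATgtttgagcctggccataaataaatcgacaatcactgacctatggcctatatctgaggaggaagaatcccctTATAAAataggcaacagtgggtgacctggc
Adipoq, chr16:23146386-23146535, plus strand: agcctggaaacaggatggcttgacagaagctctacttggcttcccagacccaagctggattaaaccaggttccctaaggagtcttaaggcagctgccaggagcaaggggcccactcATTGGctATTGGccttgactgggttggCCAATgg
Plin1, chr7:79732777-79732926, minus strand: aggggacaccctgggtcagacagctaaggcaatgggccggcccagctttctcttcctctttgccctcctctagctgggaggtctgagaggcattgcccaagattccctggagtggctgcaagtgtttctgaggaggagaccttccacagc
Alb and Fabp1 each carry GTTAAT on the gene's strand, at −32 to −27 and −107 to −102 from the start, and the latter also has TATAAA at −30 to −25. Alb also has a CCAAT box at −56 to −52 and another, on the other strand, at −15 to −11. Adipoq holds 3 CCAAT boxes and neither other motif in these 150 bases, and Plin1 holds none of the 3. Windows from 250 bases before to 50 bases after each annotated start were searched, and a gene was counted where any of its windows matched. Genes with more annotated starts thus had more windows to match. Of genes with a promoter sequence, GTTAAT was present in 106 of 687 (15.4%) of the 4-fold liver genes and 58 of 1112 (5.22%) of the 4-fold fat genes. It was present in 5.74% of 10110 of all tested genes. TATAAA was present in 19.5%, 13.2% and 9.51% of the same groups, and CCAAT in 45.3%, 36.7% and 42.8%. Over all 27025 genes with a promoter, tested or not, the shares were 8.24% for GTTAAT, 15.7% for TATAAA and 41.1% for CCAAT. CG dinucleotides were averaged over the windows of a gene. The median gene held 6.33 among liver genes, 16 among fat genes, 20 among all tested genes and 7.0 among all genes with a promoter. A match of letters is a description of these windows and not a binding site.

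Transcription factors divided along the same line. Of 17 tested liver factors 15 were higher in liver, each by at least 4-fold and each held (list median 3.67). Hnf4a, a nuclear receptor that governs hepatocyte genes, stood at 112 and 97.5 FPKM in liver and 0 and 0 FPKM in fat. The bile acid receptor Nr1h4 (70.4 and 37.3 FPKM in liver and 0.93 and 0.572 FPKM in fat) and the xenobiotic receptors Nr1i2 (33.2 and 25.9 FPKM in liver and 0 and 0 FPKM in fat) and Nr1i3 (105 and 50.2 FPKM in liver and 0.00768 and 0.0271 FPKM in fat) were also higher in liver. Nr1i3 differed between the livers by more than did Nr1i2, but neither overlapped with fat. Ppara, the receptor that induces fatty acid oxidation, stood at 60.1 and 46.5 FPKM in liver and 1.38 and 1.29 FPKM in fat (log2 difference 4.53, SE 0.15, adjusted p = 1.78e-05). The 2 remaining liver factors, Cebpa and Cebpb, are used by adipocytes too. Cebpa was at 169 and 167 FPKM in liver and 325 and 297 FPKM in fat, a call for fat that was lost under median-of-ratios scaling (−0.16), and Cebpb at 83.6 and 14.04 FPKM in liver and 76.8 and 75.5 FPKM in fat did not pass (adjusted p = 0.252) and differed several-fold between the livers.

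Of 14 tested fat factors 10 were higher in fat (8 held) and 2 in liver (2 held), with a list median of −2.15. Pparg, the master regulator of adipocyte formation, was at 17.6 and 19.8 FPKM in liver and 115 and 116 FPKM in fat, so liver of these obese mice also carried it (log2 difference −2.56, SE 0.0927, adjusted p = 2.35e-05). The early B-cell factor genes Ebf1 (0.0887 and 0.0396 FPKM in liver and 20.1 and 20.5 FPKM in fat) and Ebf2 (0 and 0.00487 FPKM in liver and 5.78 and 4.31 FPKM in fat) were near 0 in liver. The preadipocyte factor Zfp423 stood at 0.491 and 0.5995 FPKM in liver and 16.9 and 15.4 FPKM in fat, and the mesodermal T-box gene Tbx15 at 0.0187 and 0 FPKM in liver and 5.93 and 4.96 FPKM in fat. Klf4 was at 1.06 and 0.863 FPKM in liver and 107 and 27.8 FPKM in fat, and its call was lost without WT liver replicate 2 (−4.76, adjusted p = 0.0502). In the other direction went Klf15, a factor of amino acid and glucose metabolism (47.1 and 41.9 FPKM in liver and 18 and 15.5 FPKM in fat), and Tcf21, a factor of visceral mesoderm (5.25 and 6.34 FPKM in liver and 0 and 0 FPKM in fat, listed at 0 in both fat samples).

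All 18 tested Hox genes were higher in fat (16 held, median −2.14), against 62.3% of all tested genes. These homeodomain genes mark position along the body axis in mesoderm-derived cells. Hoxc8 was the most abundant at 0 and 0.0138 FPKM in liver and 30.6 and 33.8 FPKM in fat, followed in fat by Hoxc6 (0 and 0 FPKM in liver and 14.5 and 18.1 FPKM in fat) and Hoxc10 (0 and 0.0188 FPKM in liver and 14.01 and 16.3 FPKM in fat). The livers were at or near 0 for every HoxC gene tested. The smallest differences lay in Hoxa4 (0.237 and 0.2102 FPKM in liver and 1.38 and 1.396 FPKM in fat) and Hoxb4 (0.669 and 0.361 FPKM in liver and 1.67 and 2.501 FPKM in fat). The call of Hoxb4 was lost under quantile normalization (−0.43) and without WT liver replicate 2 (−0.87), and that of Hoxb6 without either liver library (−1.99 without WT liver replicate 1, −1.87 without WT liver replicate 2).

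Glucose enters the tissues through different transporters. Slc2a2, the low-affinity transporter of hepatocytes, was at 142 and 115 FPKM in liver and 0.142 and 0.0966 FPKM in fat, and Slc2a4, the insulin-responsive transporter, at 0.599 and 0.159 FPKM in liver and 49.9 and 49.1 FPKM in fat. Each was under 1 FPKM where the other was high (log2 difference 6.85, SE 0.13, adjusted p = 3.56e-06 and log2 difference −5.21, SE 0.18, adjusted p = 1.96e-05). Slc2a1, the basal transporter, was low in both at 3.28 and 4.41 FPKM in liver and 5.62 and 5.61 FPKM in fat, and its call for fat was lost under both other scalings, where the sign turned (0.14 in each), without WT liver replicate 1 (−0.29) and without either fat library (−0.46 in each).

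Genes of glucose phosphorylation also differed between the tissues. Gckr was at 121 and 104 FPKM in liver and 0 and 0 FPKM in fat. The high-affinity hexokinases were higher in fat, with Hk2 at 2.25 and 1.98 FPKM in liver and 27.6 and 19.8 FPKM in fat and Hk1 at 1.78 and 1.28 FPKM in liver and 10.6 and 7.67 FPKM in fat. All 3 of these calls held. Hk3, a hexokinase known from myeloid cells, was at 1.82 and 0.9596 FPKM in liver and 4.04 and 7.11 FPKM in fat, and its call for fat was lost without WT liver replicate 1 (−1.71), WT liver replicate 2 (−1.18) or WT fat replicate 2 (−1.10).

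**Figure D2:**
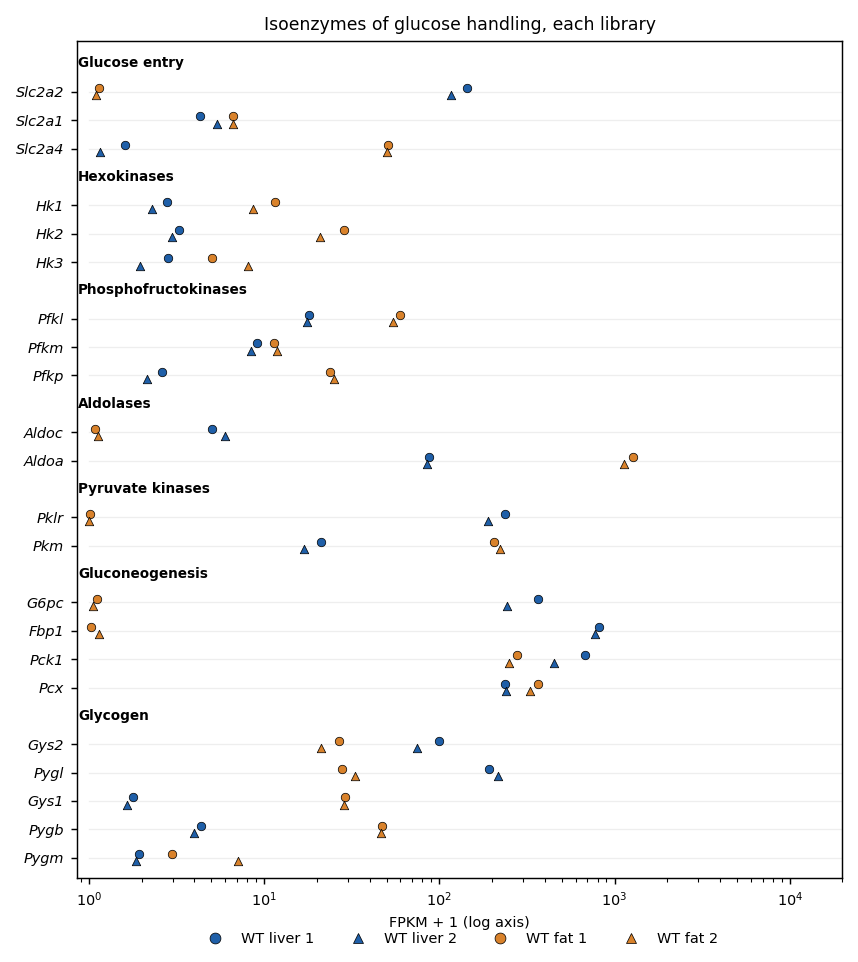
FPKM + 1 on a log axis for isoenzymes of glucose handling, with 1 point per library for the 2 WT livers and the 2 WT fat samples. Liver points lie far to the right for Slc2a2, Pklr, G6pc and Fbp1, fat points for Slc2a4, Hk2, Aldoa, Pkm and Gys1, while Pfkm and Slc2a1 points lie close together.

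Of 19 tested glycolysis genes 3 were higher in liver (3 held) and 11 in fat (8 held). The share called for fat was near the 62.3% of all tested genes, and the list median was −0.85. After median-of-ratios scaling the counts were 9 and 8 and the median −0.25, and the median was −1.41 without WT fat replicate 1 and −0.38 without WT fat replicate 2. The liver genes included Pklr, the pyruvate kinase of liver and red cells (236 and 189 FPKM in liver and 0.00787 and 0 FPKM in fat), and the aldolase gene Aldoc (4.07 and 4.96 FPKM in liver and 0.08597 and 0.128 FPKM in fat). Their counterparts Aldoa (85.98 and 84.5 FPKM in liver and 1277 and 1134 FPKM in fat) and Pkm (20.1 and 15.8 FPKM in liver and 205 and 220.4 FPKM in fat) were higher in fat by 14.1-fold and 11.9-fold in mean FPKM. The more abundant pyruvate kinase gene thus differed between the tissues. Among phosphofructokinases Pfkl and Pfkp were higher in fat (17 and 16.6 FPKM in liver and 58.4 and 53.4 FPKM in fat for Pfkl and 1.63 and 1.15 FPKM in liver and 22.8 and 24.02 FPKM in fat for Pfkp). Pfkm was almost level (8.09 and 7.43 FPKM in liver and 10.4 and 10.9 FPKM in fat), and its call for fat turned to liver after median-of-ratios scaling (0.25, adjusted p = 0.0494).

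The bifunctional enzymes that set fructose-2,6-bisphosphate, the activator of phosphofructokinase, diverged strongly. Pfkfb3 was at 3.73 and 2.53 FPKM in liver and 270.0 and 232 FPKM in fat and Pfkfb4 at 0.693 and 0.501 FPKM in liver and 16.98 and 17.8 FPKM in fat, both held, whereas Pfkfb1, the liver form, was at 19.5 and 21.9 FPKM in liver and 23.2 and 21.4 FPKM in fat and did not pass (log2 difference −0.11, SE 0.10, adjusted p = 0.383). Pfkfb2 did not pass either (5.76 and 4.35 FPKM in liver and 3.75 and 3.67 FPKM in fat), and both were called for liver after median-of-ratios scaling (0.59 and 0.94). Mean Pfkfb3 in fat was 80.2-fold that in liver. Eno1 and Ldha were abundant in both tissues and did not pass (492 and 548 FPKM in liver and 505 and 448 FPKM in fat for Eno1 and 680.0 and 817 FPKM in liver and 644 and 663 FPKM in fat for Ldha), but both were called for liver after median-of-ratios scaling (0.86 and 0.92). Ldhb was higher in fat (4.68 and 4.79 FPKM in liver and 42.7 and 36.8 FPKM in fat). Eno2, the neuronal enolase, was higher in fat at low level (0.0951 and 0.0256 FPKM in liver and 1.92 and 2.29 FPKM in fat), and Eno3, the muscle enolase, did not pass (3.596 and 3.38 FPKM in liver and 4.51 and 10.96 FPKM in fat). Pgam1 (81.8 and 85.2 FPKM in liver and 108 and 112 FPKM in fat) had a call for fat that turned to liver after median-of-ratios scaling (0.33). Pgam2, a muscle form, was at 0.556 and 0.328 FPKM in liver and 1.39 and 5.59 FPKM in fat, and its call was lost under both scalings (−1.09 and −0.87) and without WT liver replicate 1 (−1.58) or 2 (−1.35).

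Genes of the last steps of glucose output were higher in liver. Of 7 tested gluconeogenesis genes 4 were higher in liver (3 held) and 3 in fat (2 held), with a median of 1.07. G6pc, the phosphatase that frees glucose for export, was at 366 and 243 FPKM in liver and 0.112 and 0.0547 FPKM in fat (log2 difference 8.11, SE 0.21, adjusted p = 8.91e-06), and Fbp1, fructose bisphosphatase, at 817 and 777 FPKM in liver and 0.0294 and 0.141 FPKM in fat. Both were under 1 FPKM in fat. Slc37a4, which carries the substrate of that phosphatase into the endoplasmic reticulum, was at 93.1 and 58.6 FPKM in liver and 7.79 and 8.58 FPKM in fat. The upstream enzymes were abundant in both tissues. Pck1, which also feeds glyceroneogenesis in fat, was at 682 and 448 FPKM in liver and 277 and 248 FPKM in fat, and its call for liver was lost without WT fat replicate 1 (1.15, adjusted p = 0.0551) or WT fat replicate 2 (0.99, adjusted p = 0.0773). Pcx, pyruvate carboxylase, was at 237 and 238 FPKM in liver and 366 and 327 FPKM in fat, and its call for fat was lost after median-of-ratios scaling, where the sign turned (0.19). The mitochondrial Pck2 (1.52 and 1.18 FPKM in liver and 7.9 and 8.73 FPKM in fat) and the muscle-type Fbp2 (0.246 and 0.208 FPKM in liver and 3.202 and 2.45 FPKM in fat) were higher in fat.

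Glycogen genes also showed tissue forms. Of 10 tested, 4 were higher in liver (4 held) and 6 in fat (4 held), with a median of −0.98. The share called for fat was near the 62.3% of all tested genes. Gys2, the liver glycogen synthase, was at 98.2 and 73.4 FPKM in liver and 25.7 and 20.04 FPKM in fat, and the muscle form Gys1 at 0.774 and 0.657 FPKM in liver and 28.1 and 27.6 FPKM in fat. Fat thus carried both synthases, and liver was under 1 FPKM for Gys1. The liver phosphorylase Pygl was at 191 and 214 FPKM in liver and 26.9 and 32.04 FPKM in fat, the brain form Pygb at 3.35 and 2.96 FPKM in liver and 46.1 and 45.2 FPKM in fat and the muscle form Pygm at 0.9204 and 0.864 FPKM in liver and 1.996 and 6.05 FPKM in fat. Pygm, like the muscle markers described further on, was higher in fat replicate 2, and its call was lost under both scalings (−0.82 and −0.69) and without WT liver replicate 1 (−1.30) or 2 (−1.26). The primer protein gene Gyg was higher in fat (5.45 and 4.6 FPKM in liver and 66.2 and 66.01 FPKM in fat), and the branching enzyme gene Gbe1 (71.7 and 76.6 FPKM in liver and 18.2 and 17.1 FPKM in fat) higher in liver. Of the phosphorylase kinase subunits, Phka2 was at 6.797 and 5.89 FPKM in liver and 19.4 and 19.4 FPKM in fat and Phka1 at 1.34 and 1.56 FPKM in liver and 2.76 and 3.11 FPKM in fat, the latter lost under both other scalings (−0.19 and −0.06).

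The core lipogenesis genes were abundant in both tissues. Of 14 tested lipogenesis genes 6 were higher in liver (2 held) and 6 in fat (3 held), and the list median was 0.08. The counts were 8 and 3 after median-of-ratios scaling (median 0.78) and 3 and 7 without WT liver replicate 1 (median −0.09). Fasn, fatty acid synthase, was at 153 and 146 FPKM in liver and 287 and 271 FPKM in fat, and Scd1, the main stearoyl-CoA desaturase, at 2868 and 2532 FPKM in liver and 4867 and 4466 FPKM in fat. Both were called for fat, and neither call survived median-of-ratios scaling (−0.17 and −0.06). Acaca, acetyl-CoA carboxylase alpha, did not pass (21.7 and 19.04 FPKM in liver and 24.8 and 24.2 FPKM in fat), but was called for liver after that scaling (0.44). The held differences were in Me1, malic enzyme (86.4 and 94.4 FPKM in liver and 289.5 and 294 FPKM in fat), Slc25a1, the mitochondrial citrate carrier (172 and 171 FPKM in liver and 476 and 495 FPKM in fat), and Scd2 (5.62 and 4.08 FPKM in liver and 114 and 111 FPKM in fat) for fat, and in Elovl6 (28.4 and 21.3 FPKM in liver and 2.62 and 2.84 FPKM in fat) and Mlxipl, the gene of the carbohydrate response factor ChREBP (91.4 and 77.8 FPKM in liver and 24.4 and 24.3 FPKM in fat), for liver. Srebf1, its sterol-regulated counterpart, did not pass (179.5 and 119 FPKM in liver and 112 and 99.7 FPKM in fat), but was called for liver after median-of-ratios scaling (1.18). Thrsp was at 522 and 346 FPKM in liver and 178 and 229 FPKM in fat, with its call lost without WT liver replicate 1 (0.77) or WT fat replicate 1 (0.89).

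By count, genes that lengthen and desaturate fatty acids leaned to liver. Of 12 tested elongases and desaturases 7 were higher in liver (6 held) and 4 in fat (2 held), with a median of 3.20. With no filter the median was 0.59 over 15 genes. Summed over the list, FPKM was 4270 and 3930 in liver and 5360 and 4910 in fat. Fads1 and Fads2, the desaturases of polyunsaturated fatty acid synthesis, were at 268 and 235 FPKM in liver and 9.24 and 10.2 FPKM in fat and at 504 and 459 FPKM in liver and 8.203 and 4.42 FPKM in fat. Elovl5 stood at 343 and 452 FPKM in liver and 29.2 and 33.6 FPKM in fat and Elovl2 at 159 and 38.9 FPKM in liver and 0.0112 and 0.01397 FPKM in fat. The livers differed strongly in Elovl2 and in Elovl3 (13.5 and 116 FPKM in liver and 1.31 and 2.18 FPKM in fat). The call of Elovl3 for liver was lost without WT fat replicate 1 (3.69, adjusted p = 0.122) or WT fat replicate 2 (4.15, adjusted p = 0.101). The family member Fads3 went to fat (13.2 and 8.25 FPKM in liver and 278 and 236 FPKM in fat), as did Scd2. Scd1 and Scd3 were also called for fat, and neither call held.

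Fatty acid uptake and activation genes were divided between the tissues. Of 14 tested genes 8 were higher in liver (7 held) and 5 in fat (5 held), with a median of 1.0. Cd36, a fatty acid translocase, was at 86.8 and 73.6 FPKM in liver and 1616 and 1603 FPKM in fat, and Slc27a1, a transport protein of fat and muscle, at 5.23 and 2.95 FPKM in liver and 202 and 206 FPKM in fat. Caveolae genes went with them, with Cav1 at 2.01 and 1.66 FPKM in liver and 1099 and 1084 FPKM in fat. Liver carried Slc27a2 (612 and 566 FPKM in liver and 0.00954 and 0 FPKM in fat) and Slc27a5 (304 and 314 FPKM in liver and 0.0376 and 0.0175 FPKM in fat), which activate very long-chain fatty acids and bile acids. Of the long-chain acyl-CoA synthetases, Acsl1 was at 248 and 251 FPKM in liver and 823 and 754 FPKM in fat and Acsl5 at 163 and 181 FPKM in liver and 24.1 and 26.3 FPKM in fat. The medium-chain synthetases Acsm1, Acsm3 and Acsm5 were all higher in liver, and fat was listed at 0 for Acsm1 (122 and 127 FPKM in liver and 0 and 0 FPKM in fat). Only Slc27a4 of the tested members did not pass (15.3 and 14.9 FPKM in liver and 12.97 and 13.7 FPKM in fat), and it was called for liver after median-of-ratios scaling (0.85).

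Of 6 tested fatty acid binding protein genes 3 were higher in liver (2 held) and 3 in fat (2 held), with a median of 0.35. Fabp4 reached 25610 and 30060 FPKM in fat and 47.3 and 44.6 FPKM in liver, while Fabp1, shown above, reached 10460 and 11280 FPKM in liver and was listed at 0 in fat. Fabp5 went with Fabp4 (11.4 and 11.6 FPKM in liver and 534 and 563 FPKM in fat, 47.9-fold) and Fabp2, the intestinal form, with Fabp1 (185 and 210.4 FPKM in liver and 0 and 0 FPKM in fat). Fabp3, the heart form, was low in both (1.01 and 0.6302 FPKM in liver and 1.603 and 1.48 FPKM in fat), with a call for fat lost under median-of-ratios scaling (−0.11), under quantile normalization, where the sign turned (0.10), and without WT fat replicate 1 (−0.45) or WT fat replicate 2 (−0.52). Fabp7 was also low (3.87 and 1.74 FPKM in liver and 0.429 and 0.816 FPKM in fat), and its call for liver was lost without WT liver replicate 1 (0.76), WT fat replicate 1 (1.01) or WT fat replicate 2 (1.35).

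**Figure D3:**
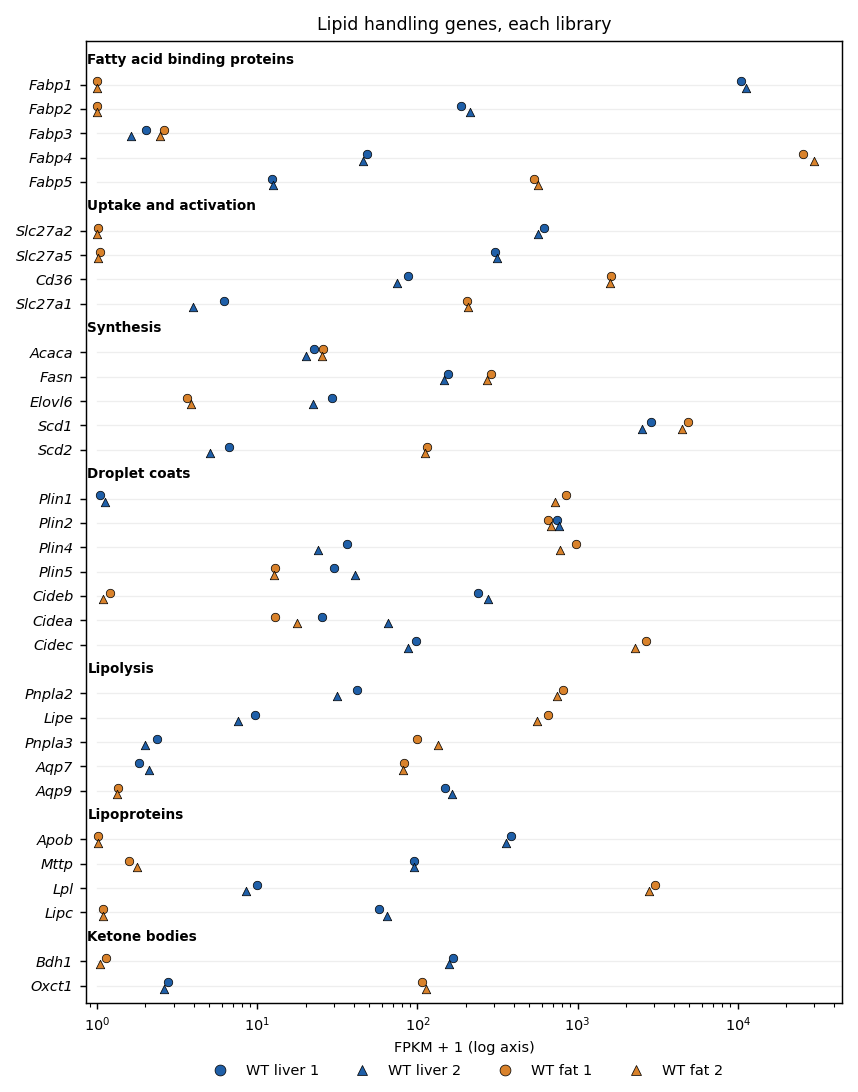
FPKM + 1 on a log axis for lipid handling genes, with 1 point per library for the 2 WT livers and the 2 WT fat samples. The liver and fat points of Acaca, Scd1 and Plin2 lie close together, whereas those of Fabp1, Fabp4, Plin1, Cideb, Lipe, Apob and Lpl lie far apart.

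Triglyceride assembly genes were present in both tissues, with different isoenzymes higher in each. Of 19 tested glycerolipid genes 7 were higher in liver (6 held) and 11 in fat (10 held), with a median of −1.22. The share called for fat was near the 62.3% of all tested genes. The acyltransferase of the last step was higher in fat for both genes, with Dgat2 at 300.1 and 163 FPKM in liver and 1667 and 1531 FPKM in fat and Dgat1 at 13 and 12.8 FPKM in liver and 149 and 142 FPKM in fat. For the first step, mitochondrial Gpam was higher in liver (72.2 and 80.1 FPKM in liver and 21.01 and 21.2 FPKM in fat) and microsomal Gpat3 in fat (8.04 and 4.32 FPKM in liver and 41.9 and 43.3 FPKM in fat). Agpat2, whose loss causes lipodystrophy, was at 134 and 176 FPKM in liver and 629 and 647 FPKM in fat. Among lipins, Lpin2 was higher in liver (68.4 and 52.6 FPKM in liver and 4.01 and 3.82 FPKM in fat) and Lpin1 in fat (10.4 and 7.201 FPKM in liver and 36.2 and 27.3 FPKM in fat). Gk, the kinase that lets hepatocytes reuse glycerol, was at 35.6 and 31.3 FPKM in liver and 4.62 and 6.56 FPKM in fat, and Gpd1, which makes glycerol phosphate from glycolysis, at 214 and 296 FPKM in liver and 819.6 and 734 FPKM in fat.

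Droplet protein genes were divided between the tissues. Of 16 tested genes 6 were higher in liver (5 held) and 8 in fat (7 held), with a median of −0.42, and after median-of-ratios scaling the counts were 8 and 7 and the median 0.30. Plin1 was at 0.04797 and 0.112 FPKM in liver and 847 and 723 FPKM in fat and Plin4 at 35.5 and 22.98 FPKM in liver and 972 and 775 FPKM in fat. Plin2, the coat of droplets in many cell types, was at 738 and 760.1 FPKM in liver and 652 and 682 FPKM in fat and did not pass (log2 difference 0.17, SE 0.0924, adjusted p = 0.15), and neither did Plin3 (45.3 and 42.6 FPKM in liver and 39.6 and 41.7 FPKM in fat). Both were called for liver after median-of-ratios scaling (0.90 and 0.82). Plin5 was higher in liver (29.2 and 39.7 FPKM in liver and 11.9 and 11.6 FPKM in fat). Members of the Cide family differed in direction. Cideb, a factor of lipoprotein lipidation, was at 239 and 275 FPKM in liver and 0.202 and 0.0851 FPKM in fat, Cidec, which fuses droplets in adipocytes, at 97.1 and 86.5 FPKM in liver and 2660 and 2274 FPKM in fat, and Cidea at 24.3 and 64.5 FPKM in liver and 11.9 and 16.7 FPKM in fat. The Cidea call for liver rested on liver replicate 2 (0.74 without it, adjusted p = 0.11) and was also lost without WT fat replicate 1 (1.20) or WT fat replicate 2 (1.65). Hsd17b13, a droplet protein of hepatocytes, was at 569 and 484 FPKM in liver and 0 and 0.0167 FPKM in fat, and the droplet-budding proteins Fitm1 and Fitm2 parted, with Fitm1 at 85.1 and 94.4 FPKM in liver and 0.678 and 0.539 FPKM in fat and Fitm2 at 24.9 and 22.96 FPKM in liver and 73.6 and 63.7 FPKM in fat. Hilpda and Abhd5 were higher in fat, at 4.18 and 5.198 FPKM in liver and 51.2 and 68.8 FPKM in fat and 10.1 and 10.2 FPKM in liver and 57.02 and 61.8 FPKM in fat.

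Of 14 tested lipolysis genes 10 were higher in fat (9 held), a share near the 62.3% of all tested genes, and 3 in liver (3 held), with a median of −2.14. The triglyceride lipase gene Pnpla2 was at 40.98 and 30.5 FPKM in liver and 816 and 747 FPKM in fat, the hormone-sensitive lipase gene Lipe at 8.68 and 6.58 FPKM in liver and 657 and 559 FPKM in fat and the monoglyceride lipase gene Mgll at 93.4 and 97.5 FPKM in liver and 503 and 472 FPKM in fat. Mean levels in fat were 21.9-fold, 79.7-fold and 5.11-fold those of liver. Upstream, the beta-adrenergic receptor Adrb3 was at 2.23 and 2.41 FPKM in liver and 27.97 and 54.6 FPKM in fat, and the kinase subunit Prkar2b was at 0.369 and 0.183 FPKM in liver and 274 and 268 FPKM in fat. Glycerol leaves adipocytes through Aqp7 (0.836 and 1.12 FPKM in liver and 81.6 and 79.9 FPKM in fat) and enters hepatocytes through Aqp9 (148 and 163 FPKM in liver and 0.339 and 0.3201 FPKM in fat), and each was under 2 FPKM in the other tissue. Pnpla3, a paralogue of Pnpla2, was at 1.36 and 0.993 FPKM in liver and 97.95 and 133 FPKM in fat. Ces1d, a carboxylesterase of both tissues, did not pass (343 and 308 FPKM in liver and 372 and 419.5 FPKM in fat) and was called for liver after median-of-ratios scaling (0.45), while its relatives Ces1g (101 and 92.1 FPKM in liver and 0.0634 and 0.107 FPKM in fat) and Aadac (268 and 327 FPKM in liver and 0.743 and 1.01 FPKM in fat) were higher in liver. Carboxylesterase genes are near copies, so reads can be divided among them uncertainly.

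Lipoprotein assembly genes went with liver and the genes of lipoprotein lipolysis were divided. Of 19 tested assembly genes 17 were higher in liver (17 held, each at least 4-fold) and 1 in fat (held), with a median of 7.20. Apob, the structural protein of very low-density lipoproteins, was at 382 and 354 FPKM in liver and 0.00629 and 0.0126 FPKM in fat, and Mttp, which loads it with lipid, at 94.7 and 93.8 FPKM in liver and 0.586 and 0.7701 FPKM in fat. Apoe stood at 23290 and 23050 FPKM in liver and 2625 and 2656 FPKM in fat, so that fat also held it among its abundant transcripts. Apoc1 was at 7234 and 7225 FPKM in liver and 142 and 141 FPKM in fat and Apoa5 at 594 and 559.8 FPKM in liver and 0 and 0 FPKM in fat. Pltp, the phospholipid transfer protein, was the member higher in fat (64.1 and 39.1 FPKM in liver and 549 and 564 FPKM in fat), and Lpcat3 did not pass (64.5 and 54.2 FPKM in liver and 46.4 and 52.8 FPKM in fat), but was called for liver after median-of-ratios scaling (0.97). Of 13 tested genes of the lipase system 5 were higher in liver (5 held) and 5 in fat (4 held), with a median of −0.09. The counts were 7 and 4 after median-of-ratios scaling, and the median turned to 0.63 there, to 0.07 under quantile normalization, to 0.21 without WT liver replicate 1 and to 0.27 without WT fat replicate 2. Lpl, which frees fatty acids from circulating lipoproteins, was at 8.93 and 7.49 FPKM in liver and 3055 and 2810 FPKM in fat, and its capillary anchor Gpihbp1 at 48.2 and 32.4 FPKM in liver and 280.2 and 232 FPKM in fat. Hepatic lipase Lipc was at 56.7 and 63.5 FPKM in liver and 0.0906 and 0.0907 FPKM in fat. Of the Lpl inhibitors, Angptl4 was higher in fat (58.9 and 47.9 FPKM in liver and 521 and 559.5 FPKM in fat) and Angptl8 did not pass, with overlapping groups (43.4 and 78.2 FPKM in liver and 48.1 and 79.6 FPKM in fat). The lipoprotein receptor gene Vldlr was higher in fat (1.99 and 0.847 FPKM in liver and 31.1 and 27.2 FPKM in fat).

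More oxidation genes were called for liver than for fat. Of 20 tested 14 were higher in liver (10 held) and 4 in fat (1 held), with a median of 0.55, and after median-of-ratios scaling the counts were 17 and 1. With TPM the counts were 11 and 5 and the median 0.38. Without each library in turn the median lay from 0.52 to 0.61. The peroxisomal enzymes were clearly higher in liver, with Acaa1b at 1781 and 1858 FPKM in liver and 62.1 and 64.1 FPKM in fat and Ehhadh at 129.9 and 112 FPKM in liver and 19.2 and 16.6 FPKM in fat. The omega-hydroxylases Cyp4a10 (145 and 120.0 FPKM in liver and 0.02104 and 0.02298 FPKM in fat) and Cyp4a14 (230.0 and 116 FPKM in liver and 0 and 0 FPKM in fat) were at or near 0 in fat. Mitochondrial enzymes differed among themselves. Acaa2, the thiolase of the mitochondrial spiral, was at 634 and 705 FPKM in liver and 113 and 107 FPKM in fat, and Cpt1a, the gatekeeper, at 165 and 109 FPKM in liver and 47.9 and 43.6 FPKM in fat, both higher in liver. Cpt2 did not pass (89.4 and 87.5 FPKM in liver and 88.05 and 91.1 FPKM in fat), but was called for liver after median-of-ratios scaling (0.70). Acadm and Hadhb carried calls for fat that turned to liver after median-of-ratios scaling (0.46 and 0.36), at 228 and 232 FPKM in liver and 276 and 276 FPKM in fat and 143 and 151 FPKM in liver and 197 and 183 FPKM in fat, and each was also lost when libraries were left out (differences from −0.28 to −0.25 for Acadm over 4 of 4 libraries, and from −0.41 to −0.31 for Hadhb over 3 of 4). Acadl lost its call for fat under that scaling with a turned sign (0.06). Pdk4, which spares glucose by blocking pyruvate dehydrogenase, was the held gene for fat (8.41 and 10.1 FPKM in liver and 40.8 and 28.1 FPKM in fat).

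Ketone body genes were divided between synthesis and use. Of 6 tested genes 4 were higher in liver (4 held) and 1 in fat (held), with a median of 2.10. Bdh1, which makes hydroxybutyrate from acetoacetate, was at 166 and 157 FPKM in liver and 0.134 and 0.0457 FPKM in fat. Oxct1, the transferase that lets tissues burn ketones and that hepatocytes largely lack, was at 1.77 and 1.61 FPKM in liver and 106 and 112 FPKM in fat (log2 difference −5.35, SE 0.0923, adjusted p = 2.72e-06). The carrier Slc16a1 did not pass, with overlapping groups (14.9 and 19.9 FPKM in liver and 17.8 and 23.8 FPKM in fat).

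Sterol synthesis genes were measured in both tissues. Of 14 tested genes 9 were higher in liver (7 held) and 4 in fat (1 held), with a median of 0.98, and the counts were 10 and 1 after median-of-ratios scaling. Fdps, farnesyl diphosphate synthase, was at 232 and 249 FPKM in liver and 66.4 and 69.8 FPKM in fat, and Fdft1, squalene synthase, at 33.8 and 33.03 FPKM in liver and 9.14 and 11.01 FPKM in fat. Mvk was the held gene for fat (11.5 and 11.3 FPKM in liver and 30.2 and 29.7 FPKM in fat). Insig1 (85.3 and 117 FPKM in liver and 239 and 199.8 FPKM in fat) had a call for fat lost under median-of-ratios scaling (−0.39). Insig2 (46.5 and 208 FPKM in liver and 23.04 and 24.8 FPKM in fat) differed several-fold between the livers, and its call for liver was lost without WT fat replicate 1 (1.95) or WT fat replicate 2 (2.05). Of 8 tested genes of sterol efflux and storage 3 were higher in liver (3 held) and 5 in fat (1 held). The share called for fat was near the 62.3% of all tested genes, and the list median was −0.50. The counts were 4 and 2 after median-of-ratios scaling, where the median turned to 0.21, 3 and 2 under quantile normalization and 3 and 3 without either liver library. Abcg5 and Abcg8, the canalicular sterol pump, were at 44.4 and 31.7 FPKM in liver and 0.0321 and 0 FPKM in fat and 34.6 and 22.9 FPKM in liver and 0 and 0 FPKM in fat, and Soat2 was at 29.5 and 23.9 FPKM in liver and 0.34 and 0.1801 FPKM in fat, whereas Abcg1 was higher in fat (1.96 and 1.57 FPKM in liver and 10.3 and 12.3 FPKM in fat). All 10 bile acid genes were at least 4-fold higher in liver and held, with a median of 5.94. Cyp7a1, the rate-limiting enzyme of bile acid synthesis, was low at 8.65 and 6 FPKM in liver and 0 and 0 FPKM in fat, well under Cyp8b1 (224 and 334 FPKM in liver and 0.304 and 0.274 FPKM in fat) and Cyp27a1 (177 and 209 FPKM in liver and 23.8 and 22.1 FPKM in fat). Slc10a1, which takes bile acids up from blood, was at 231 and 224 FPKM in liver and 0 and 0.0165 FPKM in fat.

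Of 9 tested genes of the urea cycle and glutamine metabolism 8 were higher in liver (7 held) and 1 in fat (held), with a median of 4.81. Cps1 was at 269 and 275 FPKM in liver and 0 and 0 FPKM in fat, Otc at 159 and 176 FPKM in liver and 0 and 0 FPKM in fat and Arg1 at 592 and 507 FPKM in liver and 0.431 and 0.569 FPKM in fat. The glutaminase gene Gls2 was at 115 and 101 FPKM in liver and 0.119 and 0.169 FPKM in fat. Glul, glutamine synthetase, was abundant in both (500.5 and 489.6 FPKM in liver and 307 and 248 FPKM in fat), and its call for liver was lost without WT liver replicate 1 (0.83, adjusted p = 0.0515). Ass1 was listed under 1 FPKM in all 4 libraries and was not tested. The reason for this low listing beside Cps1, Otc and Arg1 was not examined, and it is not read as absence from liver.

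Most secreted signals were higher in the tissue they are named for. Of 17 tested liver-made signals 13 were higher in liver (13 held, each at least 4-fold) and 2 in fat (1 held), with a median of 5.64. Hamp, the iron hormone hepcidin, was at 379 and 458 FPKM in liver and 0 and 0 FPKM in fat, Igfbp1 at 80.1 and 39.5 FPKM in liver and 0 and 0 FPKM in fat and Igfbp2 at 70.5 and 68.3 FPKM in liver and 0.0625 and 0.116 FPKM in fat. The fasting hormone Fgf21 was at 15.7 and 21.1 FPKM in liver and 2.66 and 1.64 FPKM in fat, and the hepatokine Inhbe at 63.2 and 71.97 FPKM in liver and 0 and 0 FPKM in fat. Igf1, regarded as a liver hormone, was nearly as high in fat (45.2 and 44.6 FPKM in liver and 35.4 and 42.2 FPKM in fat) and did not pass (log2 difference 0.21, SE 0.11, adjusted p = 0.136), but was called for liver after median-of-ratios scaling (0.92). Of 15 tested fat-made signals 12 were higher in fat (11 held) and none in liver, with a median of −3.32. Besides the adipokines above, Sfrp5 was at 0.202 and 0.0499 FPKM in liver and 187 and 178 FPKM in fat, Nrg4 at 4.77 and 1.82 FPKM in liver and 24.9 and 25.6 FPKM in fat and Apln at 0.0954 and 0.301 FPKM in liver and 7.07 and 10.2 FPKM in fat. Nampt (15.02 and 11.2 FPKM in liver and 16.1 and 16.97 FPKM in fat), Rarres2 (552 and 583 FPKM in liver and 664 and 665 FPKM in fat) and Bmp4 (2.06 and 1.38 FPKM in liver and 2.25 and 1.85 FPKM in fat) did not pass, and Rarres2 was called for liver after median-of-ratios scaling (0.50). Vegfa lost its call for fat under median-of-ratios scaling (−0.29) and without WT liver replicate 1 (−1.03) or 2 (−0.98), from 35.6 and 34.4 FPKM in liver and 82.6 and 61.1 FPKM in fat.

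Of 24 tested hormone receptors 3 were higher in liver (2 held) and 18 in fat (14 held), with a median of −1.09, while 62.3% of all tested genes were called for fat. After median-of-ratios scaling the counts were 6 and 14, and under quantile normalization 5 were higher in liver. Gcgr, the glucagon receptor, was at 178 and 148 FPKM in liver and 0.583 and 0.986 FPKM in fat, and Fgfr4 at 12.3 and 14.8 FPKM in liver and 0.00697 and 0.00695 FPKM in fat. In fat stood the natriuretic peptide clearance receptor Npr3 (0.254 and 0.272 FPKM in liver and 224 and 197 FPKM in fat), the prostaglandin receptor Ptger3 (0 and 0.0199 FPKM in liver and 70.4 and 64.9 FPKM in fat), the short-chain fatty acid receptor Ffar2 (0.101 and 0.0236 FPKM in liver and 76.2 and 85.9 FPKM in fat) and the incretin receptor Gipr (0 and 0 FPKM in liver and 3.87 and 5.32 FPKM in fat). The endocrine FGF receptors parted, with Fgfr1 at 1.95 and 1.41 FPKM in liver and 56.6 and 51.5 FPKM in fat, while their co-receptor Klb was present in both (8.25 and 5.92 FPKM in liver and 17.1 and 17.1 FPKM in fat). Insr, the insulin receptor, did not pass (15.2 and 11.7 FPKM in liver and 11.97 and 12.1 FPKM in fat), with groups that overlapped, but was called for liver after median-of-ratios scaling (0.81). The growth hormone receptor Ghr was called for fat (172 and 184 FPKM in liver and 355 and 366 FPKM in fat), which was lost after median-of-ratios scaling (−0.29). Of 13 tested insulin signalling genes 13 were higher in fat (7 held), with a median of −1.76, and 7 were called for fat after median-of-ratios scaling. The held ones included Akt2, the main insulin-responsive Akt (23.8 and 22.5 FPKM in liver and 99.2 and 98.8 FPKM in fat), Trarg1, a regulator of GLUT4 traffic (0.141 and 0.1003 FPKM in liver and 241 and 228 FPKM in fat), and Tbc1d4 (1.03 and 0.781 FPKM in liver and 8.88 and 9.42 FPKM in fat).

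AMPK, the energy sensor that the study is about, is a trimer of a catalytic alpha, a beta and a gamma subunit. Of 9 tested genes of its subunits and upstream kinases 1 was higher in liver (held) and 7 in fat (4 held), with a median of −0.83, against 62.3% of all tested genes called for fat and a median of −0.59. After median-of-ratios scaling 3 were called for liver and 4 for fat, with a median of −0.12. Of the catalytic genes, Prkaa2 was higher in liver (8.57 and 10.1 FPKM in liver and 1.38 and 1.54 FPKM in fat) and Prkaa1 in fat (2.76 and 2.61 FPKM in liver and 9.68 and 10.8 FPKM in fat), and both calls held. The order of the 2 catalytic genes was thus opposite in the tissues. Prkab1 did not pass (14.3 and 11.1 FPKM in liver and 10.6 and 12.1 FPKM in fat), but was called for liver after median-of-ratios scaling (0.82), and Prkab2 was higher in fat (1.02 and 0.928 FPKM in liver and 4.84 and 4.47 FPKM in fat). Prkag1 was the most abundant gamma gene in both (25.7 and 22.99 FPKM in liver and 43.2 and 44.6 FPKM in fat), and its call for fat was lost under median-of-ratios scaling (−0.12). Prkag2 was lost there (−0.02), under quantile normalization (−0.23) and without WT liver replicate 2 (−0.60), from 9.19 and 7.98 FPKM in liver and 13.4 and 15.7 FPKM in fat. Prkag3, known from muscle, was held for fat (0.118 and 0.0773 FPKM in liver and 4.18 and 2.89 FPKM in fat). Of the upstream kinases, Camkk2 was higher in fat (1.86 and 1.604 FPKM in liver and 6.24 and 7.46 FPKM in fat). Stk11, which encodes LKB1, was at 29.8 and 27.6 FPKM in liver and 35.05 and 35.95 FPKM in fat, and its call for fat turned to liver after median-of-ratios scaling (0.41, adjusted p = 0.00762) and was lost under quantile normalization, with a turned sign (0.04), and without WT liver replicate 2 (−0.24), WT fat replicate 1 (−0.31) or WT fat replicate 2 (−0.28). Mkrn1, the ubiquitin ligase gene absent from the null mice left out here, lies on chromosome 6 from 39397816 to 39420369. It was at 9.42 and 10.1 FPKM in liver and 16.8 and 19.3 FPKM in fat. It was called for fat (log2 difference −0.82, SE 0.11, adjusted p = 0.00158), and the call was lost under median-of-ratios scaling (−0.14). Its relative Mkrn2 was also called for fat (7.87 and 6.59 FPKM in liver and 11.4 and 11.4 FPKM in fat), a call lost under both other scalings (0.06, where the sign turned, and −0.08) and without WT fat replicate 1 (−0.59) or 2 (−0.60).

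**Figure D4:**
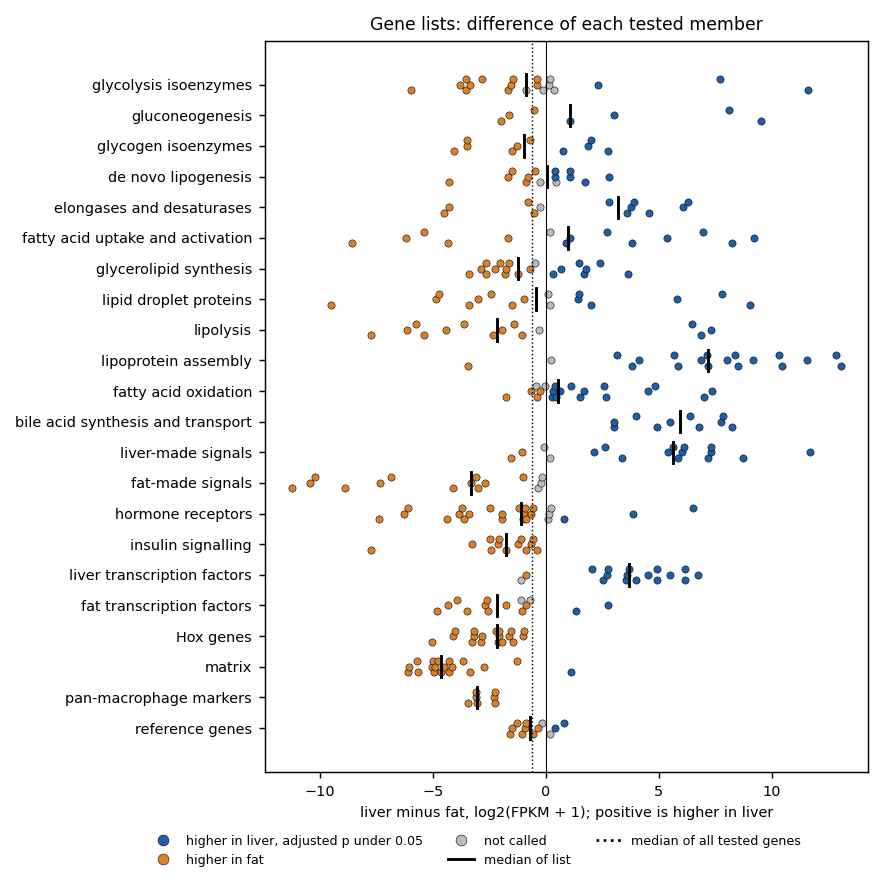
Difference between WT liver and WT subcutaneous fat on the log2(FPKM + 1) scale for each tested member of 22 gene lists, with positive values for liver. The dotted line is the median of all tested genes (−0.59), and lipoprotein and bile acid genes lie almost wholly to its right, whereas nearly all Hox and matrix genes lie to its left.

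Nearly all matrix genes were higher in fat. Of 19 tested matrix genes 18 were higher in fat (17 held) and 1 in liver (held), with a median of −4.65. Col3a1 was at 31.3 and 21.7 FPKM in liver and 865 and 736 FPKM in fat, Col6a2 at 4.38 and 3.89 FPKM in liver and 278 and 250.4 FPKM in fat and Sparc at 28.3 and 15.4 FPKM in liver and 1710 and 1282 FPKM in fat. Fn1, whose soluble form hepatocytes secrete into plasma, was the member higher in liver (231 and 191 FPKM in liver and 107 and 87.2 FPKM in fat). Of 10 tested stellate cell and fibroblast genes 3 were higher in liver (2 held) and 6 in fat (6 held), with a median of −2.33. The stellate cell genes Reln (8.94 and 6.396 FPKM in liver and 0.0973 and 0.0613 FPKM in fat) and Lrat (5.08 and 3.15 FPKM in liver and 0.0131 and 0.00541 FPKM in fat) went to liver and the fibroblast genes Pi16 (0.229 and 0.0887 FPKM in liver and 206 and 146 FPKM in fat) and Dpt (11.9 and 7.63 FPKM in liver and 966 and 983 FPKM in fat) to fat. Hgf did not pass (3.23 and 2.63 FPKM in liver and 2.74 and 3.09 FPKM in fat), but was called for liver after median-of-ratios scaling (0.55).

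Pan-macrophage and endothelial markers were higher in fat, those of Kupffer cells were mixed, and most of those of sinusoidal and bile duct cells were higher in liver. All 7 pan-macrophage markers were at least 4-fold higher in fat, with a median of −3.03, among them Cd68 (15.1 and 9.54 FPKM in liver and 87.05 and 139.8 FPKM in fat) and Adgre1 (7.998 and 4.39 FPKM in liver and 25.9 and 38.98 FPKM in fat). The direction held for all 7, but only 4 stayed at least 4-fold under either of the other scalings. Of 6 Kupffer cell markers 2 were higher in liver (2 held), namely Clec4f (42.1 and 11.4 FPKM in liver and 0 and 0.00911 FPKM in fat) and Cd5l (60.02 and 35.1 FPKM in liver and 0.494 and 0.741 FPKM in fat), and Folr2 was higher in fat (9.25 and 2.99 FPKM in liver and 73.5 and 94.7 FPKM in fat), with a list median of 0.50. The median was −0.41 without WT liver replicate 1 (2 called for liver and 3 for fat) and 1.40 without WT liver replicate 2 (4 and 1). Vsig4, Timd4 and Marco did not pass. Liver replicate 1 exceeded replicate 2 in each of these 6, but this order was not particular to them. Summed FPKM of livers 1 and 2 was 140 and 93.2 for pan-macrophage and 44.0 and 28.0 for endothelial markers. It was 124 and 76.6 for sinusoidal and 220 and 166 for stellate cell and fibroblast markers. Erythroid markers went the other way (1340 and 1440). Of 7 markers of lipid-associated macrophages 6 were higher in fat (2 held) and Spp1 in liver (242 and 201 FPKM in liver and 2.08 and 5.38 FPKM in fat), with a median of −2.12. Without either liver library 2 were called for fat. The held calls were those of Cd9 and of Lpl, which adipocytes express. Trem2 (5.31 and 5.55 FPKM in liver and 23.5 and 58.8 FPKM in fat) and Gpnmb (3.45 and 2.55 FPKM in liver and 24.2 and 67.4 FPKM in fat) were higher in fat replicate 2 than in replicate 1, and their calls were lost without WT liver replicate 1 (−2.54 and −3.55) or WT liver replicate 2 (−2.60 and −3.22). Of 6 endothelial markers 6 were higher in fat (4 held, median −2.08), with Pecam1 at 10.2 and 6.78 FPKM in liver and 60.1 and 78.9 FPKM in fat. Of 6 sinusoidal markers 4 were higher in liver (4 held) and 1 in fat (not held), with a median of 2.73. Clec4g led them at 45.8 and 27.5 FPKM in liver and 0.247 and 0.177 FPKM in fat, and Lyve1, found in both beds, did not pass (9.24 and 6.14 FPKM in liver and 12.5 and 9.85 FPKM in fat). Of 5 bile duct markers 4 were higher in liver (4 held, median 1.34), with Epcam at 4.25 and 2.81 FPKM in liver and 0.0212 and 0 FPKM in fat. The others were Spp1, counted above as well, and Krt7 and Sox9, both under 2 FPKM in liver. Krt19 did not pass (2.78 and 2.15 FPKM in liver and 2.06 and 0.832 FPKM in fat), but was called for liver after median-of-ratios scaling (0.999).

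Cells from outside the 2 tissues were checked as well. Of 6 tested muscle markers 3 were higher in fat and 0 held, with a median of −2.63. The number called for fat was 0 without WT liver replicate 1, 1 without WT liver replicate 2, 6 without WT fat replicate 1 and 5 without WT fat replicate 2. Summed over the list, FPKM was 9.72 and 10.9 in liver and 44.1 and 268 in fat, so that fat replicate 2 stood above the other libraries. Acta1 was at 1.57 and 2.23 FPKM in liver and 20.3 and 56.6 FPKM in fat and Mylpf at 1.44 and 1.63 FPKM in liver and 5.34 and 41.01 FPKM in fat. The call of Acta1 was lost without WT liver replicate 1 (−3.44, adjusted p = 0.0532), and that of Mylpf under both scalings (−2.13 and −2.16) and without WT liver replicate 1 (−2.63) or 2 (−2.75). The part of muscle RNA in values of genes that muscle shares with fat was not tested. Of the skin and gland keratins, Krt5, Krt14, Krt15 and Krt17 were at or near 0 in all 4 libraries, and Krt8 and Krt18, which hepatocytes make, were higher in liver, as was Dsp (3 held of 4 tested). Of 5 tested lymphocyte markers 3 were higher in fat and 0 held (median −0.56, and 0.07 under quantile normalization). Of 4 tested erythroid markers 2 were higher in liver (0 held) and 2 in fat (2 held), with a median of −0.15 that turned to 0.57 after median-of-ratios scaling and 0.20 without WT fat replicate 2, and globin genes are near copies whose reads can be shared. Of 6 tested thermogenic markers 3 were higher in liver (0 held) and 3 in fat (2 held), with a median of −0.22 that turned to 0.30 under both other scalings. Without either fat library 0 were called for liver. Ucp1, the uncoupling protein of brown fat, was at 0 and 0 FPKM in liver and 0.675 and 0.512 FPKM in fat and was not tested, whereas Cox8b (0 and 0.0632 FPKM in liver and 52.6 and 65.9 FPKM in fat) and Prdm16 (0.101 and 0.0772 FPKM in liver and 2.68 and 2.54 FPKM in fat) were higher in fat. Of 12 genes often used as reference 2 were higher in liver (2 held) and 8 in fat (3 held), a share near the 62.3% of all tested genes. Their median was −0.71, and the counts were 3 and 3 after median-of-ratios scaling. Eef1a1 (2646 and 2409 FPKM in liver and 2197 and 2300 FPKM in fat) did not pass but was called for liver after that scaling (0.90), whereas Actb was higher in fat (304 and 365 FPKM in liver and 955 and 911 FPKM in fat) and Gapdh in liver (342 and 390.3 FPKM in liver and 219 and 196 FPKM in fat).

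The tissues also differed in which transcript of a gene they used, a measure that does not depend on the scaling between libraries. Of 3817 transcripts of 1999 genes with at least 2 transcripts and 5 FPKM in every library, 97 (2.54%) of 56 genes differed by at least 30 percentage points of the gene's FPKM at an adjusted p under 0.05 (limma on logit shares). With the replicate number as a block, or without any single library, no transcript passed limma's adjusted p, while 191 with the block and 191 to 220 without a library differed by 30 points at an unadjusted p under 0.05 (187 with all 4). The shares below are therefore to be read from the 4 values. Short reads divide overlapping transcripts by estimation, and the depth behind a share is that of the gene.

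**Figure D5:**
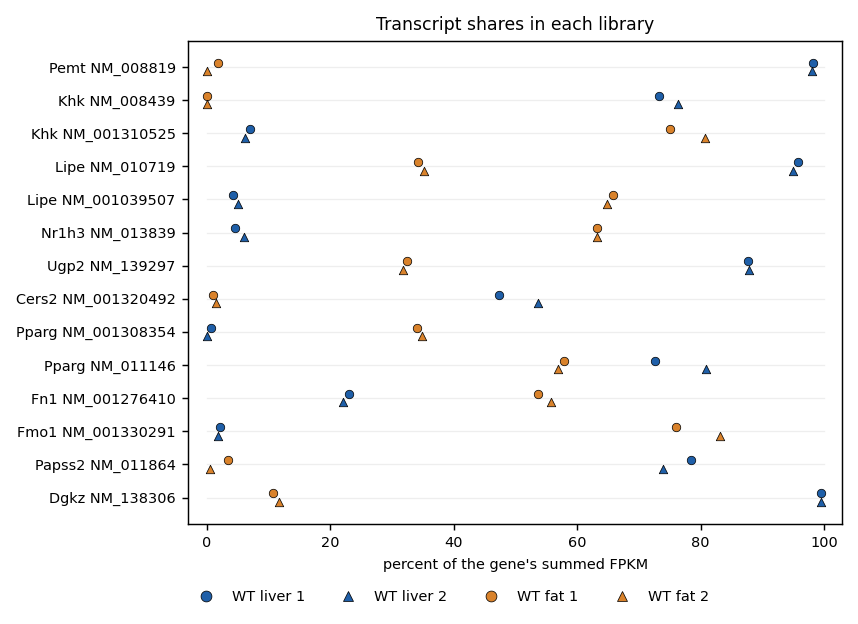
Percent of the gene's summed FPKM held by selected transcripts, with 1 point per library for the 2 WT livers and the 2 WT fat samples. The liver points and the fat points of Pemt, Khk and Lipe transcripts lie at opposite sides, with the 2 samples of a tissue close together.

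Lipe used different starts. Its transcript NM_001039507 held 4.198% and 5.03% in liver and 65.8% and 64.9% in fat, and NM_010719, which begins 5875 bases upstream, held the rest. The 150 bases before each start are given because the choice between them is what differed, in the order of transcription on the minus strand of chromosome 7.
Lipe upstream start, chr7:25395988-25396137: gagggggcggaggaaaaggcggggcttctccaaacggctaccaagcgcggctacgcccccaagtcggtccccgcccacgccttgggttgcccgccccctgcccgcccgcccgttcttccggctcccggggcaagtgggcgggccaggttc
Lipe downstream start, chr7:25390113-25390262: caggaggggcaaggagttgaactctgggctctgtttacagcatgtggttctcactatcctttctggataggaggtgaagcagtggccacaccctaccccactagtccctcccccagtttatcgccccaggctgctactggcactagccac
The upstream window, used for nearly all of the scarce liver message, was 74.0% G or C with 16 CG dinucleotides, and the window before the start most used in fat was 56.7% G or C with 1. Neither held the 3 motifs named above.

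Pemt, which makes phosphatidylcholine from phosphatidylethanolamine, showed the largest shift. Its NM_008819 held 98.2% and 98.01% in liver and 1.71% and 0.0697% in fat, and NM_001290011 held 0.9699% and 1.398% in liver and 68.8% and 71.1% in fat. Khk, fructokinase, is known for a C form with high affinity for fructose and an A form that is more widely expressed. Transcript NM_008439 held 73.3% and 76.3% in liver and 0% and 0% in fat, while NM_001310525 held 7.005% and 6.201% in liver and 74.98% and 80.8% in fat. Pklr was made almost only in liver, and its liver start is shown beside the upstream start known from red cells.
Pemt liver start, chr11:60037006-60037155, minus strand: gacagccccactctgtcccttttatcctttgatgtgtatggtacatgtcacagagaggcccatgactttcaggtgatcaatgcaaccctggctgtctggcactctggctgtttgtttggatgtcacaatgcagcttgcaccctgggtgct
Pklr liver start, chr3:89136473-89136622, plus strand: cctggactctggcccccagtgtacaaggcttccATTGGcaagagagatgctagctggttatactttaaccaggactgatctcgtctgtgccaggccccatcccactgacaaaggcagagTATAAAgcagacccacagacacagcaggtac
Pklr upstream start, chr3:89135992-89136141, plus strand: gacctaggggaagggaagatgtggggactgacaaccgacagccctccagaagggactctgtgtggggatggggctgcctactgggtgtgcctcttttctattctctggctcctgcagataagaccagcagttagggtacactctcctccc
None of the 3 motifs is present before the liver start of Pemt. The liver start of Pklr is preceded by TATAAA at −31 to −26 and, on the other strand, by a CCAAT box at −117 to −113. The upstream start is preceded by none of the 3 motifs.

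Pparg, which has several annotated starts, kept a mixed use. NM_001308354, which begins 1398 bases downstream of the first start, held 0.646% and 0% in liver and 33.99% and 34.95% in fat, which passed. NM_011146, which begins 61115 bases downstream of it, held 72.7% and 80.9% in liver and 57.9% and 56.9% in fat, which did not (adjusted p = 0.131). Fn1, which is spliced into plasma and cellular forms, shifted too, and NM_001276410 held 22.98% and 22.1% in liver and 53.6% and 55.8% in fat. The diacylglycerol kinase gene Dgkz used NM_138306 for 99.6% and 99.5% in liver and 10.7% and 11.6% in fat, and the monooxygenase gene Fmo1 used NM_010231 for 97.1% and 97.5% in liver and 19.5% and 11.3% in fat. Nr1h3, an oxysterol receptor, used NM_013839 for 4.498% and 6.07% in liver and 63.2% and 63.3% in fat. Several metabolic genes with known alternative forms did not pass, among them Pkm, Srebf1, Lpin1, Igf1 and Cd36. The insulin receptor transcript NM_001330056 held 92.7% and 95.2% in liver and 93.04% and 65.8% in fat, so that the 2 fat samples disagreed.

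The samples of a tissue agreed closely, with 152 genes (1.19%) at least 2-fold apart between the livers and 122 (0.953%) between the fat samples on the log2(FPKM + 1) scale. Among list members, the livers differed most in Elovl3, Cebpb, Insig2 and Elovl2 and the fat samples in 5 muscle genes, Klf4, Hbb-bs and Mmp12. Elovl3, Insig2 and Elovl2 act in lipid metabolism, and the 2 livers went in different directions among them, with replicate 2 higher in Elovl3 and Insig2 and replicate 1 in Elovl2. No cause can be read from 2 samples.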

How the data were processed

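RNA of 2 liver and 2 subcutaneous fat samples of WT mice on an HFD was compared, and the 4 MKRN1-null libraries were not used. The FPKM, TPM and coverage values that the authors deposited had been estimated by StringTie 1.3.3b for 36780 transcripts of a fixed RefSeq annotation, after alignment with HISAT2 and SAMtools to mm10 (versions not given in the sources used here), and scaled to depth within each library only. The paper's methods describe another pipeline with read counts. FPKM is not a count, so count tests were not used.

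FPKM was summed per gene ID, and genes at 1 FPKM or more in at least 2 of 4 libraries were tested by limma 3.58.1 in R 4.3.3 on log2(FPKM + 1), with a variance trend and Benjamini-Hochberg adjustment over all 12799. For transcripts, log2((share + 0.01)/(1 − share + 0.01)) was fitted for genes at 5 FPKM or more in all libraries and shares of at least 0.1 in 2. Symbols were matched by ID for 24462 of 24532 genes and by transcript for 8. Python 3.11.15 (with pandas 2.3.3, numpy 2.4.6 and, for figures, matplotlib 3.10.9) read the files, and the fits were tested on simulated data.

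Members and gene lists were chosen with earlier results of these data known. Named genes are the 10 largest differences in each direction, without provisional names and near-copy families, every member of the glucose, binding protein and AMPK lists, up to 6 of each other list in each direction, members not called where needed, and Mkrn1 and Mkrn2. Some genes that these rules name are not reported here, though list counts include them. For transcripts they are genes with known alternative forms and the 10 largest shifts. Chosen after their values were seen were Adgre1, Apln, Apob, Apoc1, Apoe, Col3a1, Cpt1a, Cyp27a1, Cyp7a1, Fgf21, Fitm2, Ghr, Gipr, Glul, Gpd1, Hbb-bs, Hoxa4, Hoxb4, Hoxb6, Igfbp1, Igfbp2, Klb, Mgll, Mttp, Nrg4 and Vegfa, the transcripts of Nr1h3, and the rule for calls that held. Alternatives were a pseudocount of 0.1, TPM, no filter, a filter at 5 FPKM, median-of-ratios scaling, quantile normalization, no trend, a replicate block, each library left out and, for shares, a gene filter of 10, a prior of 0.05 and coverage in place of FPKM.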

Additional observations from a re-analysis of the deposited data

How the results depend on the processing

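Gene calls moved with scaling, 4-fold calls also with the pseudocount, and transcript calls with the block and the libraries. Genes higher in liver numbered 4464 by median-of-ratios scaling and 3852 by quantile normalization, and genes higher in fat 4306 and 5013. With TPM these counts were 2153 and 9475 of 13897 genes tested, and 2149 were at least 4-fold higher in fat. At least 4-fold calls for fat became 929 after median-of-ratios scaling and 2447 with a pseudocount of 0.1, while those for liver stayed within 1.5 times of 889 under every alternative run. Of the 1504 main 4-fold calls for fat, 1494 were still called for fat after median-of-ratios scaling and 0 for liver. The median log2 difference of all genes was −0.304 with no filter, −0.102 on the quantile scale and 0.021 by median-of-ratios.

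The direction of 23 named genes reversed after median-of-ratios scaling (Acaca 0.44, Acadl 0.06, Acadm 0.46, Acss2 0.23, Angptl8 0.63, Bmp4 0.30, Ces1d 0.45, Cpt2 0.70, Hadhb 0.36, Lss 0.16, Lyve1 0.15, Mkrn2 0.06, Nampt 0.35, Nr1h3 0.47, Pcx 0.19, Pfkfb1 0.59, Pfkm 0.25, Pgam1 0.33, Rarres2 0.50, Scd3 0.17, Slc16a1 0.45, Slc2a1 0.14 and Stk11 0.41). After quantile normalization it reversed for 17 (Acaca 0.12, Angptl8 0.07, Bmp4 0.44, Cd79b 0.07, Cpt2 0.04, Eef1a1 −0.58, Fabp3 0.10, Krt10 0.11, Ldha −0.01, Lyve1 0.02, Nampt 0.12, Pfkfb1 0.28, Pfkm 0.11, Plin2 −0.05, Slc16a1 0.16, Slc2a1 0.14 and Stk11 0.04), and with TPM for 7 (Eef1a1 −0.01, Eno1 −0.05, Hgf −0.15, Insr −0.03, Plin2 −0.01, Plin3 −0.07 and Prkab1 −0.02). The 4 leave-outs spanned 0 in the differences of −0.50 to 0.33 for Angptl8, −0.36 to 0.01 for Bmp4, −2.36 to 0.13 for Cebpb, −0.04 to 0.01 for Cpt2, −0.11 to 0.11 for Hgf, −0.04 to 0.31 for Insr and −0.03 to 0.31 for Prkab1, and with 1 sample left in a tissue the spread was taken from the other.

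With the replicate number as a block, 2288 genes were higher in liver and 7935 in fat, 892 and 1512 of them at least 4-fold, and 0 transcript shares passed, against 97 without it. The leave-outs gave 0 to 0 transcript shares, with fewer samples in each fit. The replicate numbers were not shown to pair the samples, since deviations of same-numbered liver and fat samples correlated at 0.0598 over 12799 genes. The cause of the other changes was not tested. Depth, 6.05 to 9.24 Gb, limits scarce genes and transcripts, and 2 samples a tissue limit every p.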
